A study of Mus musculus with 159 samples.

Results

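Genes that tissue macrophages are known to express, Axl, Vcam1, Sdc3, Ctsd and Zeb2, were followed beside Marco through the segments of 4 fibrotic mouse livers. They are 5 of the 607 genes of the deposited spatial table, in which each gene has a value in each of 159 segments. The genes were chosen with their levels by segment type and their relation to Marco known, so these values are given as a description. The NanoString GeoMx Digital Spatial Profiler releases barcoded probes with light from chosen areas of a stained tissue section and counts them by sequencing. In 51 regions of interest (ROIs), placed by hand and classed as MarcoHi or MarcoLo by the MARCO stain, the staining for DESMIN, MARCO and IBA1 divided the tissue into 4 segment types. Marco+IBA+ segments (45) hold area stained for MARCO and the macrophage protein IBA1, Marco-IBA+ segments (24) area stained for IBA1 without MARCO, Des+ segments (41) area stained for DESMIN, a protein of hepatic stellate cells, and Else segments (49) the rest of the ROI.

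The livers came from WT C57BL/6 mice, which were 8 weeks old at the first of the intraperitoneal doses of carbon tetrachloride (CCl4). The doses were given for 6 weeks to induce fibrosis. The study used male and female mice, and the methods do not give the sex of these 4. According to the methods, all 4 mice received CCl4, and 2 of them also received bone marrow-derived macrophages sorted for MARCO while the other 2 received saline. The labels call livers 1 and 3 treated CCl4 and livers 2 and 4 control, and do not say which livers received cells, so the pairs are named here by these labels. Each liver is 1 animal, and the segments of a liver are not independent of each other.

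AXL is a receptor tyrosine kinase of the TAM family, through which macrophages bind and take up dying cells. VCAM1 is an adhesion molecule of the immunoglobulin family that binds the integrin alpha4beta1 on leukocytes. SDC3 is a syndecan, a transmembrane proteoglycan with heparan sulfate chains. CTSD is an aspartic protease of the lysosome, and ZEB2 a zinc finger repressor known to maintain the identity of tissue-resident macrophages. MARCO is a scavenger receptor with a collagenous domain, known on a subset of Kupffer cells, the resident macrophages of the liver sinusoid.

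The name resident macrophage could not be checked against the cells' defining markers. Of 20 Kupffer cell and macrophage markers, 2 (Id3 and Marco) were among the genes analysed, and of 9 markers of infiltrating macrophages 1 (Cd63), whereas all 8 stellate cell markers were measured. The authors kept genes that their single-cell data placed in stellate cells, and Clec4f, Timd4, Adgre1, Csf1r and Aif1, which encodes IBA1, were not analysed here. No marker of endothelial cells, hepatocytes, cholangiocytes or lymphocytes on the lists was measured, so a share of these cells in any segment was not tested. Among the stellate cell genes, Dcn was 1.87 ± 0.15 lower in Marco+IBA+ than in Des+ segments, Reln 1.62 ± 0.18 lower and Lrat 0.91 ± 0.13 lower (log2, SD over 4 livers), while Des itself was 0.31 ± 0.32 lower, within the spread between livers. Marco was 14.7-fold higher in Marco+IBA+ than in Marco-IBA+ segments. One Marco-IBA+ segment, from a MarcoHi ROI of liver 3, held a Marco value of 482 against a median of 15.3 over that segment type, which goes against its label, and differences from that type are given with and without it.

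The reference promoters of the genes are shown because the genes were high in the same segments. Each line holds the 250 bases before the start that the RefSeq promoter table for GRCm38.p6 gives for the gene (the outermost of 4 for Zeb2), at chr7:25788734-25788983 for Axl (minus strand), chr4:130792287-130792536 for Sdc3 (plus strand), chr2:45117443-45117692 for Zeb2 (minus strand), chr7:142387828-142388077 for Ctsd (minus strand) and chr1:120505025-120505274 for Marco (minus strand). Capitals mark the letters GAGGAA, the core of the site of the myeloid factor PU.1, and CACGTG, the core of the CLEAR element of lysosomal genes and also an E-box, each searched on both strands over 300 bases that reach past the start.
Axl: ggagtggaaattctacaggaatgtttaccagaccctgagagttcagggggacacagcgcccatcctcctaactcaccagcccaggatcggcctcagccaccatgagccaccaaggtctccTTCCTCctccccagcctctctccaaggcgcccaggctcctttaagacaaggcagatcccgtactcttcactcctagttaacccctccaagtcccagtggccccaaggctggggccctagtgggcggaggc
Sdc3: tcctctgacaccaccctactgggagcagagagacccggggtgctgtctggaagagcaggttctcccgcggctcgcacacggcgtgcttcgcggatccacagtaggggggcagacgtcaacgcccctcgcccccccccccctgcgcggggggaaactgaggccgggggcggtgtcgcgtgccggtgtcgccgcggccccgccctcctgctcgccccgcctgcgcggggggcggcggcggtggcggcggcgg
Zeb2: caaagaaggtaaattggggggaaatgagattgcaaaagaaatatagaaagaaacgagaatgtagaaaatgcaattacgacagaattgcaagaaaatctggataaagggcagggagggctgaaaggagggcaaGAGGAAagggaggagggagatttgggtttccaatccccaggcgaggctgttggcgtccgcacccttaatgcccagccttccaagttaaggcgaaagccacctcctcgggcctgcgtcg
Ctsd: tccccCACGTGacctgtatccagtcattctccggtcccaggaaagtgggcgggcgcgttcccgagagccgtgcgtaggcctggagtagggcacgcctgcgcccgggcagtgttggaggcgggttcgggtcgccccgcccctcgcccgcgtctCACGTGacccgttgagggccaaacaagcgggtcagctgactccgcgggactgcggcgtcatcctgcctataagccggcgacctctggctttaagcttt
Marco: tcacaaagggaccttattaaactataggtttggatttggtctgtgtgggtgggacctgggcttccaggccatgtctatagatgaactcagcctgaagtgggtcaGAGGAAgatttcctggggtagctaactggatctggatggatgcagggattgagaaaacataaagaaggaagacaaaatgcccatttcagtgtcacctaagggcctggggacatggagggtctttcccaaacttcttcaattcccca
The PU.1 core stood 130 bases before the start of Axl (as its reverse complement), 118 bases before that of Zeb2 and 146 bases before that of Marco. The CLEAR core stood 98 and 245 bases before the start of Ctsd. Neither was found in the window of Sdc3. Of 32851 promoters of the same length, 28.3% held the PU.1 core and 7.15% the CLEAR core, so the matches are a description of the letters and no evidence of binding. Vcam1 was not matched in the promoter table. In the same build the genes lie at chr7:25756500-25788924 (Axl), chr3:116110020-116129688 (Vcam1), chr4:130792537-130826318 (Sdc3), chr7:142375910-142387827 (Ctsd), chr2:44983512-45117442 (Zeb2) and chr1:120474538-120505024 (Marco). The annotated bounds of Axl reach past the start given in the promoter table.

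Axl, Vcam1, Sdc3 and Ctsd were highest in Marco+IBA+ segments, and Zeb2 in Marco-IBA+ segments. The deposited values are counts scaled so that the 75th percentile of each segment is 26.074 (Q3 normalization), and segments with more or fewer cells are thus brought to 1 scale. Fewer cells of a type and less RNA per cell cannot be told apart in such segments. Sdc3 ranged from 73.9 to 287 in Marco+IBA+ segments (median 183), from 39.1 to 197 in Marco-IBA+ segments (median 123), from 2.61 to 56.5 in Des+ segments (median 19.1) and from 8.59 to 29.2 in Else segments (median 12.1). No Marco+IBA+ segment was as low in Sdc3 as the highest Des+ or Else segment. Axl ranged from 60.8 to 158 in Marco+IBA+ segments (median 90.3), from 13.0 to 117 in Marco-IBA+ segments (median 78.2), from 3.72 to 60.8 in Des+ segments (median 14.9) and from 6.46 to 16.7 in Else segments (median 8.53).

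Ctsd was the member with the smallest range between segment types. Its values ran from 204 to 487 in Marco+IBA+ segments (median 327), from 78.2 to 346 in Marco-IBA+ segments (median 189), from 8.69 to 130.4 in Des+ segments (median 70.8) and from 72.6 to 107 in Else segments (median 86.5). Vcam1 ran from 8.69 to 67.2 in Marco+IBA+ segments (median 34.1), from 6.52 to 52.1 in Marco-IBA+ segments (median 26.1), from 2.90 to 21.7 in Des+ segments (median 11.2) and from 3.97 to 9.21 in Else segments (median 6.22). Vcam1 thus overlapped between every pair of segment types. Zeb2 ran from 20.9 to 86.2 in Marco+IBA+ segments (median 45.1), from 26.1 to 95.6 in Marco-IBA+ segments (median 65.2), from 8.69 to 46.9 in Des+ segments (median 20.3) and from 6.44 to 13.4 in Else segments (median 8.56). All Marco+IBA+ and Marco-IBA+ segments lay above all Else segments for Zeb2, whereas the Des+ segments overlapped all the other types.

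**Figure D1:**
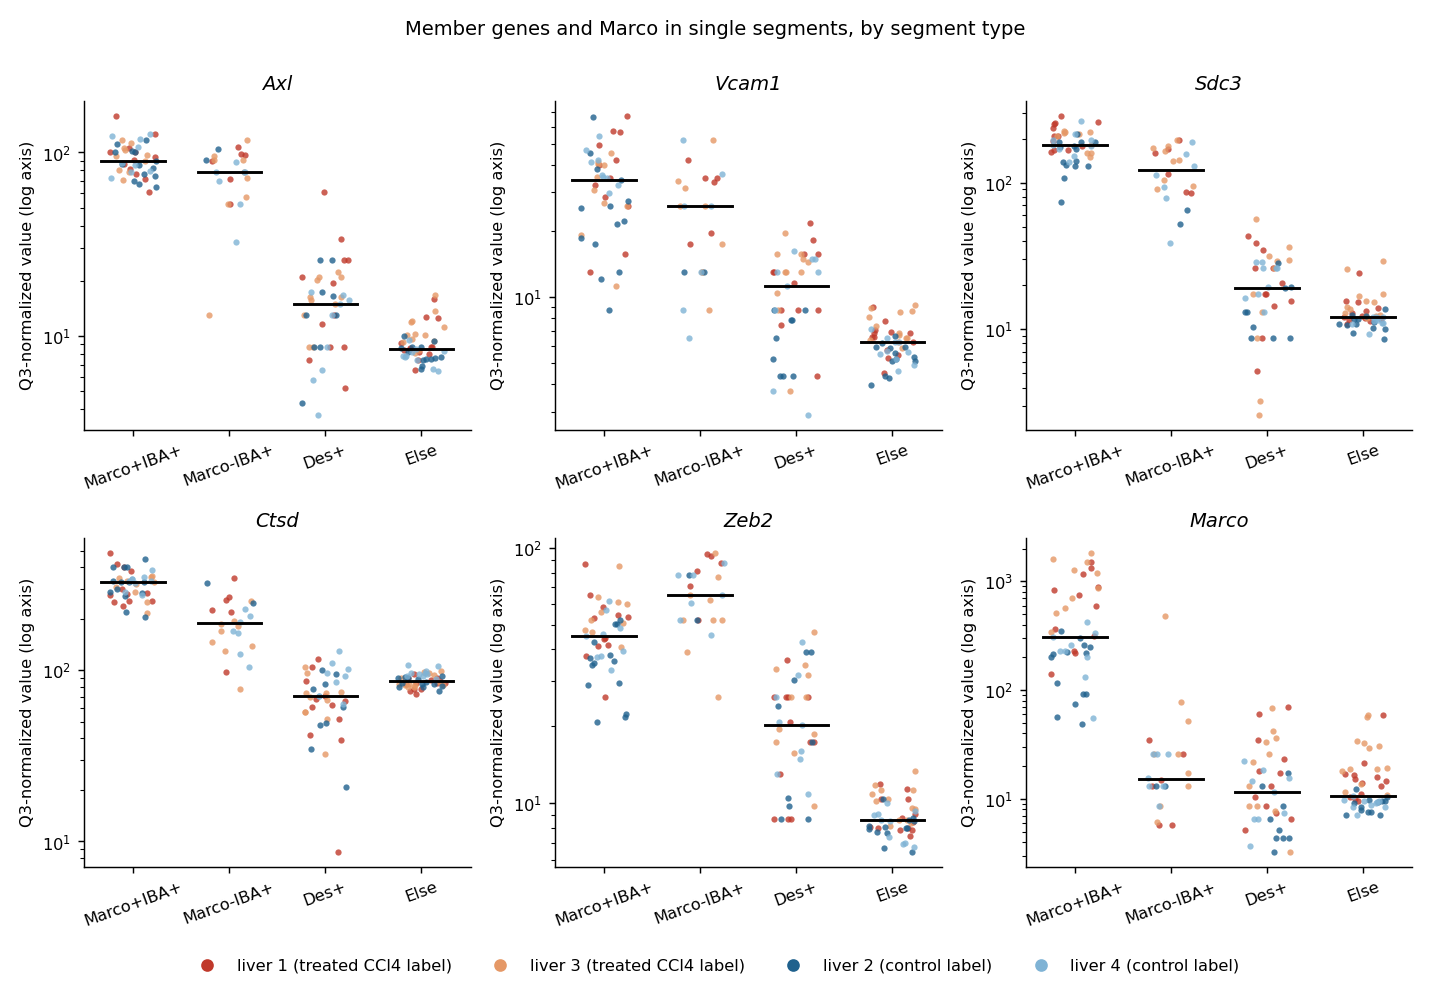
Q3-normalized value (log axis) of each member and of Marco in every segment, by segment type, with points coloured by liver and black lines at the median over segments. The median of Sdc3 was 183 in Marco+IBA+ segments and 12.1 in Else segments, while Zeb2 had its highest median, 65.2, in Marco-IBA+ segments.

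These values rest on very different counts. The 75th percentile stood at a median of 15.5 counts in Marco+IBA+ segments, 3 in Marco-IBA+ segments, 7 in Des+ segments and 379.5 in Else segments. Vcam1 had a median of 3 counts in Marco-IBA+ segments, where 8 of 24 stood at the lowest count of 1, and of 3 in Des+ segments, where 12 of 41 did. Axl had a median of 8 counts in Marco-IBA+ and 4 in Des+ segments, and Zeb2 7.5 and 6. In Marco+IBA+ segments the medians were 20 counts for Vcam1, 27 for Zeb2, 55 for Axl, 116 for Sdc3 and 213 for Ctsd.

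To compare segment types with the liver as the replicate, values were averaged within a liver and ROI class, taken as log2 after adding 1, and averaged over both classes. On this scale, which understates the change of low genes, Sdc3 was higher in Marco+IBA+ than in Else segments by 3.90, 3.64, 3.49 and 3.80 in livers 1 to 4, a mean of 3.71 ± 0.18 (SD, n = 4) or 13.1-fold. Axl was higher by 3.23 ± 0.17 (9.39-fold), Zeb2 by 2.25 ± 0.18 (4.75-fold), Vcam1 by 2.24 ± 0.32 (4.71-fold) and Ctsd by 1.82 ± 0.11 (3.54-fold). Among the 607 genes these differences ranked 3, 4, 5, 6 and 10, behind Marco at rank 1 (4.54 ± 0.60), and the median gene differed by -0.05. Marco-IBA+ segments shared this pattern: against Else segments Axl ranked 1 (2.97 ± 0.35), Sdc3 2 (2.91 ± 0.43) and Zeb2 3 (2.81 ± 0.29). There Vcam1 ranked 15 (1.73 ± 0.44) and Ctsd 42 (1.25 ± 0.42), and the median gene was at 0.35. No test is given, since the members were chosen with this pattern known. Stellate cell genes were also higher than in Else segments: 6 of 8 in Marco+IBA+ segments in all 4 livers (median 0.66, Ecm1 1.44 and Dcn 1.41 highest) and 8 of 8 in Marco-IBA+ segments (median 0.81, beside 0.35 for all genes). Their part in the members' differences was not tested. Each member was higher in the Marco+IBA+ segment than in the Else segment of the same ROI in all 43 ROIs that had both. This count was not made for all genes, of which 170 of 607 were higher in all 4 livers, so nothing is read from it.

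Against Des+ segments Sdc3 and Axl again led the members, while Zeb2 came last. Sdc3 was higher in Marco+IBA+ than in Des+ segments by 3.14 ± 0.17 (8.81-fold), Axl by 2.48 ± 0.25 (5.58-fold), Ctsd by 2.14 ± 0.20 (4.40-fold) and Vcam1 by 1.59 ± 0.34 (3.01-fold). Zeb2 was higher by 1.02 ± 0.27 (2.03-fold) and ranked 22 of 607. Zeb2 was also 1.23 ± 0.13 higher in Des+ than in Else segments, the largest such difference of the 5 genes, and Ctsd was 0.31 ± 0.10 lower in Des+ than in Else segments in all 4 livers. Axl, Vcam1 and Sdc3 were 0.75 ± 0.21, 0.64 ± 0.28 and 0.57 ± 0.29 higher in Des+ than in Else segments. In this comparison Zeb2 ranked 68, and Axl, Vcam1 and Sdc3 ranked 135, 155 and 171 of 607 genes. As many as 250 genes were higher in all 4 livers. Of 41 Des+ segments 7, 12 and 7 stood at 1 count for Axl, Vcam1 and Sdc3. Each member was also higher in Marco-IBA+ than in Des+ segments, with Sdc3 at rank 1 (2.34 ± 0.39) and Axl at rank 2 (2.22 ± 0.36). Zeb2 (1.58 ± 0.37), Ctsd (1.56 ± 0.48) and Vcam1 (1.08 ± 0.23) ranked 8, 9 and 18 there.

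Between the macrophage segment types the differences were small beside the 14.7-fold difference of Marco, and they rest on few counts. Sdc3 was higher in Marco+IBA+ than in Marco-IBA+ segments by 0.80 ± 0.43, Ctsd by 0.58 ± 0.33 and Vcam1 by 0.51 ± 0.31, each in 4 of 4 livers. Axl differed by 0.26 ± 0.29, less than the spread between livers, and was lower in liver 2. Zeb2 went the other way, at 0.68, 0.86, 0.02 and 0.68 below its Marco-IBA+ level in livers 1 to 4, with a mean of -0.56 ± 0.37. The median gene was at -0.23. Among 607 genes Sdc3 ranked 8, Ctsd 20, Vcam1 33, Axl 86 and Zeb2 450. Of all genes 66 were higher and 224 lower in all 4 livers, so the direction of Zeb2 was a common one. Without the Marco-IBA+ segment of high Marco the differences were 0.80 for Sdc3, 0.58 for Ctsd, 0.49 for Vcam1, 0.27 for Axl and -0.55 for Zeb2, and that of Marco rose from 3.88 to 4.08.
Liver 2 had no Marco-IBA+ segment in MarcoHi ROIs. Within the 22 ROIs that held both macrophage segments, Sdc3 was higher in the Marco+IBA+ segment of 20, Ctsd of 21, Axl of 14, Vcam1 of 12 and Zeb2 of 4. Such counts were not made for all genes. Over these ROIs alone the mean difference over livers was 0.81 for Sdc3, 0.50 for Ctsd, 0.28 for Axl, 0.23 for Vcam1 and -0.48 for Zeb2. The median over the 22 ROIs was 0.65 for Sdc3, 0.80 for Ctsd, 0.24 for Axl, 0.13 for Vcam1 and -0.24 for Zeb2, the last near the median gene of the comparison above.

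**Figure D2:**
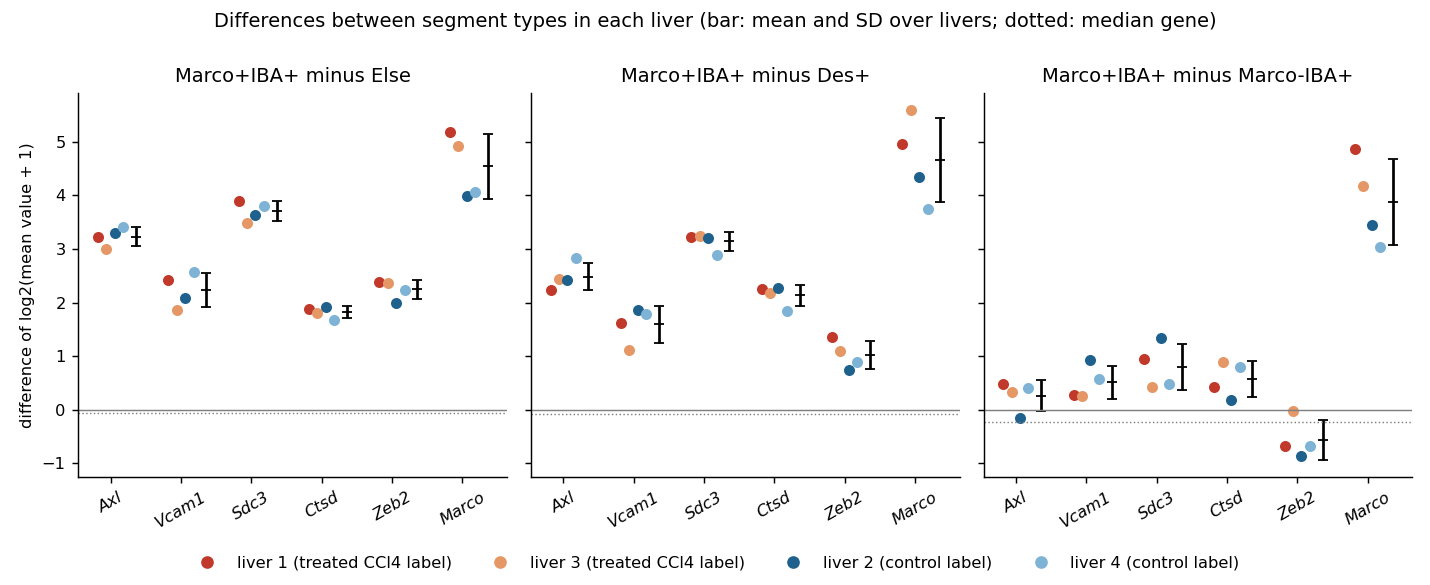
Difference of log2(mean value + 1) between Marco+IBA+ segments and each other type, for each gene, with 1 point per liver, the mean and SD over 4 livers as a bar, and the median gene as a dotted line. Sdc3 lay between 3.49 and 3.90 against Else segments. Against Marco-IBA+ segments Zeb2 alone of the genes drawn was below 0 in each liver, as were 224 of all 607 genes.

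The members' partners from the lists of related genes did not all follow them. Of 10 measured lysosome genes, 6 were higher in Marco+IBA+ than in Else segments in all 4 livers and 2 were lower, against 170 and 218 of all 607 genes, and the list had a median of 0.37 beside -0.05. Ctsd (1.82) and Cst3 (1.02), a cathepsin inhibitor, were at the top, and Ctsl (-0.71 ± 0.11), another cathepsin, and Lamp2 (-0.68 ± 0.01), a lysosomal membrane protein, at the bottom. Against Marco-IBA+ segments 7 of the 10 were higher in all livers and 1, Cd63 (-0.57 ± 0.21), was lower, beside 66 and 224 of all genes.
Of 7 measured TAM and efferocytosis genes, 2 were higher than in Else segments in all livers, Axl and Itgb5 (0.72 ± 0.13), an integrin chain, and 2 were lower, Pros1 (-0.17 ± 0.11), a ligand of TAM receptors, and Calr (-0.53 ± 0.13), which marks dying cells when on their surface. Of 7 genes of syndecans, VCAM1 and their partners, 4 were higher in all livers, Sdc3, Vcam1, Itga9 (1.52 ± 0.14) and Itgb1 (0.46 ± 0.16), which encode the integrin alpha9beta1 that also binds VCAM1. In all livers 3 of the 7 were lower: Rdx, a linker of membrane and actin, was 0.57 ± 0.29 lower, Sdc2, the syndecan beside Sdc3 in the table, was 0.97 ± 0.17 lower and Gpc4, a glypican, 1.02 ± 0.39 lower. Of 7 genes of ZEB2 and TGF-beta signalling, 4 were higher in all livers, with Zeb2 (2.25) and Id3 (1.11 ± 0.23), an inhibitor of DNA binding induced by BMP signals, at the top, and 1 was lower, Cdh2 (-0.90 ± 0.23), while Ltbp1 was at -0.11 ± 0.21.

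The genes whose pattern was most like that of each member were found over the 31 means of liver, ROI class and segment type. Tmem86a, an enzyme of lysoplasmalogen breakdown, was nearest to Axl (r = 0.97) and to Sdc3 (r = 0.97), and Axl and Sdc3 were second for each other (r = 0.96). Slfn5 followed for Axl (r = 0.96) and Gnai2, an inhibitory G protein subunit, for Sdc3 (r = 0.96). Vcam1 was nearest to Sdc3 (r = 0.94), Gnai2 (r = 0.92) and Fcna (r = 0.92), which encodes ficolin A, a lectin of the complement lectin pathway. Ctsd was nearest to Sdc3 (r = 0.91), Tmem86a (r = 0.90) and the glycolytic enzyme Aldoa (r = 0.90). Zeb2 was nearest to Epb41l2 (r = 0.94), Slfn5 (r = 0.93), which it shared with Axl, and Filip1l (r = 0.91). Marco stood at rank 32 to 34 for Sdc3, Ctsd and Vcam1, 54 for Axl and 100 for Zeb2. Marco, unlike the members, was low in Marco-IBA+ segments. The means share livers, and values of a segment share its scaling.

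Among Marco+IBA+ segments, Sdc3, Axl and Vcam1 followed Marco from segment to segment, whereas Ctsd and Zeb2 did so weakly and unevenly between livers. Marco itself ran from 48.4 to 1833 over these 45 segments. After the mean of each liver and ROI class was taken out, Pearson's r with Marco was 0.69 for Sdc3, 0.58 for Axl and 0.50 for Vcam1 (Spearman's rho 0.67, 0.57 and 0.51), and these genes ranked 2, 3 and 5 of 606. Fcna was first (r = 0.84), and the median gene was at -0.04. Ctsd (r = 0.10, rank 130) and Zeb2 (r = 0.11, rank 120) lay among the other genes, with Spearman's rho at 0.25 and 0.23. The correlations are descriptions, over segments that share 4 animals and their sections and a common scaling, and they were known when the genes were chosen. Without the 2 segments farthest from the median of Marco, r was 0.65 for Sdc3, 0.51 for Axl, 0.39 for Vcam1, 0.17 for Ctsd and 0.21 for Zeb2.
Within the single livers r of Sdc3 was 0.73, 0.69, 0.70 and 0.80 in livers 1 to 4 (12, 14, 10 and 9 segments, ROI class means taken out). Axl ran from 0.40 in liver 1 to 0.76 in liver 3 and Vcam1 from 0.41 in liver 3 to 0.68 in liver 4. Ctsd ran from -0.01 in liver 1 to 0.46 in liver 3. Zeb2 ran from -0.11 in liver 1 to 0.52 in liver 4, with 0.47 in liver 3. For each 1-unit difference of log2 Marco, the fitted difference was 0.32 for Sdc3, 0.30 for Axl and 0.52 for Vcam1. The pooled r of Zeb2, with no mean taken out, was 0.55, and it was 0.24 once liver means were taken out, so that the relation of Zeb2 with Marco lay mostly between livers.

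**Figure D3:**
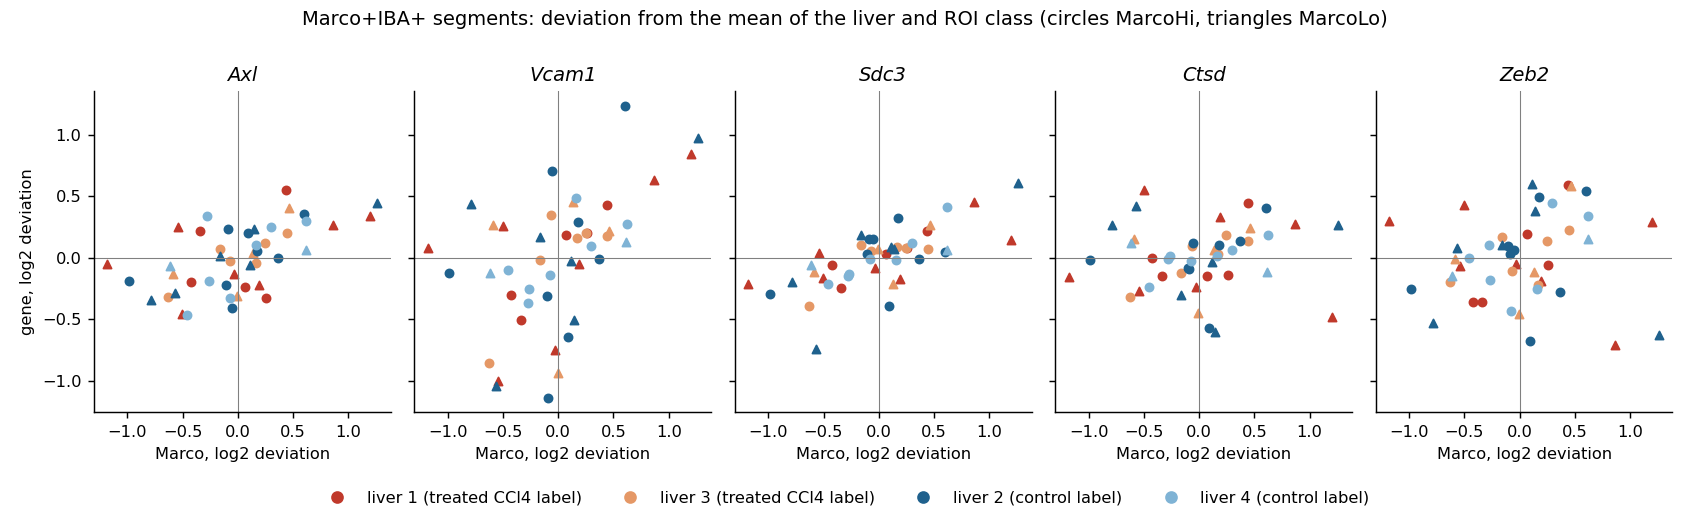
Deviation of each member against that of Marco in the 45 Marco+IBA+ segments, as log2(value + 1) minus the mean of the liver and ROI class, with circles for MarcoHi and triangles for MarcoLo ROIs. Sdc3 (r = 0.69) and Axl (r = 0.58) were higher where Marco was higher, and Ctsd (r = 0.10) and Zeb2 (r = 0.11) showed little relation.

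The members were also related to each other unequally in these segments. Axl with Sdc3 and Vcam1 with Sdc3 both had r = 0.50, and Vcam1 with Ctsd r = 0.46. Axl with Vcam1 had r = 0.23, and the pairs with Zeb2 ran from 0.17 to 0.24. The summed counts of a segment had r between -0.04 (Ctsd) and 0.23 (Vcam1) with the members and 0.08 with Marco.

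In Else segments, at much higher counts, Sdc3 also followed Marco. Over 49 Else segments, with liver and ROI class means taken out, r with Marco was 0.91 for Sdc3 (rank 1 of 606), 0.67 for Axl (rank 4), 0.52 for Vcam1 (rank 32), 0.50 for Zeb2 (rank 47) and 0.20 for Ctsd (rank 237), beside a median gene at 0.12. An Else segment of a MarcoHi ROI in liver 1 had the highest Marco value of its type, 59.7, with Axl at 16.0 and Sdc3 at 24.1, and it lay far from the other Else segments of its group for all 3 genes. Without it and 1 further segment, from a MarcoLo ROI of liver 3, r was 0.84 for Sdc3 (rank 1), 0.49 for Axl (rank 45) and 0.46 for Vcam1 (rank 61). The ROIs of both these segments had no Marco+IBA+ segment among those analysed. The part of macrophage signal within Else area was not tested. In Des+ segments r was 0.18 for Sdc3, 0.15 for Axl and 0.17 for Vcam1, and in Marco-IBA+ segments 0.01, 0.30 and 0.27, at medians of 4 and 2 counts of Marco. Such weak values at these counts are no finding.
The Else and the Marco+IBA+ segment of a ROI did not vary together in the members. Over the 43 ROIs with both, r between the segments was 0.07 for Sdc3, 0.02 for Axl, -0.10 for Vcam1, 0.21 for Ctsd and -0.18 for Zeb2, and 0.44 for Marco.

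MarcoHi ROIs were then compared with MarcoLo ROIs, to ask whether the members differed with the MARCO content of the area. In Marco+IBA+ segments the mean of Sdc3 was 249, 174, 209.8 and 200.4 in MarcoHi ROIs of livers 1 to 4 and 190.2, 129, 175 and 146 in their MarcoLo ROIs. Sdc3 was higher in MarcoHi ROIs of each liver, and single segments of the classes overlapped in livers 1, 2 and 3. The difference was 0.38 ± 0.11 (SE, log2), with a Benjamini-Hochberg adjusted p of 0.296 in limma on the liver and class means with liver as a block. Vcam1 stood at 51.2, 31.3, 36.9 and 39.5 in MarcoHi and 29.7, 21.0, 23.8 and 38.8 in MarcoLo ROIs, a difference of 0.49 ± 0.15 (adjusted p = 0.296 in limma), higher in 4 of 4 livers but by 0.02 in liver 4. Axl differed by 0.21 ± 0.12 (adjusted p = 0.537 in limma, higher in 4 of 4 livers), Zeb2 by 0.14 ± 0.13 (adjusted p = 0.704 in limma) and Ctsd by -0.04 ± 0.13 (adjusted p = 0.903 in limma).
With limma 0 of 5 members passed the threshold of 0.05, and 6 of 607 genes did, or 0.988%, so nothing is read from this count, the more so as these segments also gave the relation with Marco. At an unadjusted p below 0.05 the members numbered 2, Sdc3 and Vcam1, and all genes 67. Other models moved both calls. Sdc3 passed with edgeR (0.40, adjusted p = 0.00136), with DESeq2 (0.40, adjusted p = 0.00106) and with a linear mixed model on single segments (0.39, adjusted p = 0.00118), and Vcam1 with edgeR (0.52, adjusted p = 0.00201) and the mixed model (0.57, adjusted p = 0.0479). Over all 15 alternatives the adjusted p ran from 0.00106 to 0.619 for Sdc3 and from 0.00201 to 0.619 for Vcam1, with the difference above 0 in each. All these models refit the segments in which the relation with Marco was known, on classes set by the MARCO stain. Their p-values are thus no separate support for that relation.
Marco, whose protein defined the classes, was 1.48 ± 0.12 higher (adjusted p = 0.0012 in limma). In limma no other list gene passed upward, and 1, Cd63 (-0.99, adjusted p = 0.037 in limma), passed downward. In the lysosome list 0 of 10 genes passed upward and 1 downward, with a median of 0.07 beside -0.02 for all genes. Of the 7 TAM genes, the 7 syndecan and VCAM1 genes and the 7 ZEB2 genes 0 passed, with medians of 0.05, 0.21 and -0.04. Of the 8 stellate cell genes 1 was above 0 and 0 passed, with a median of -0.43.

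**Figure D4:**
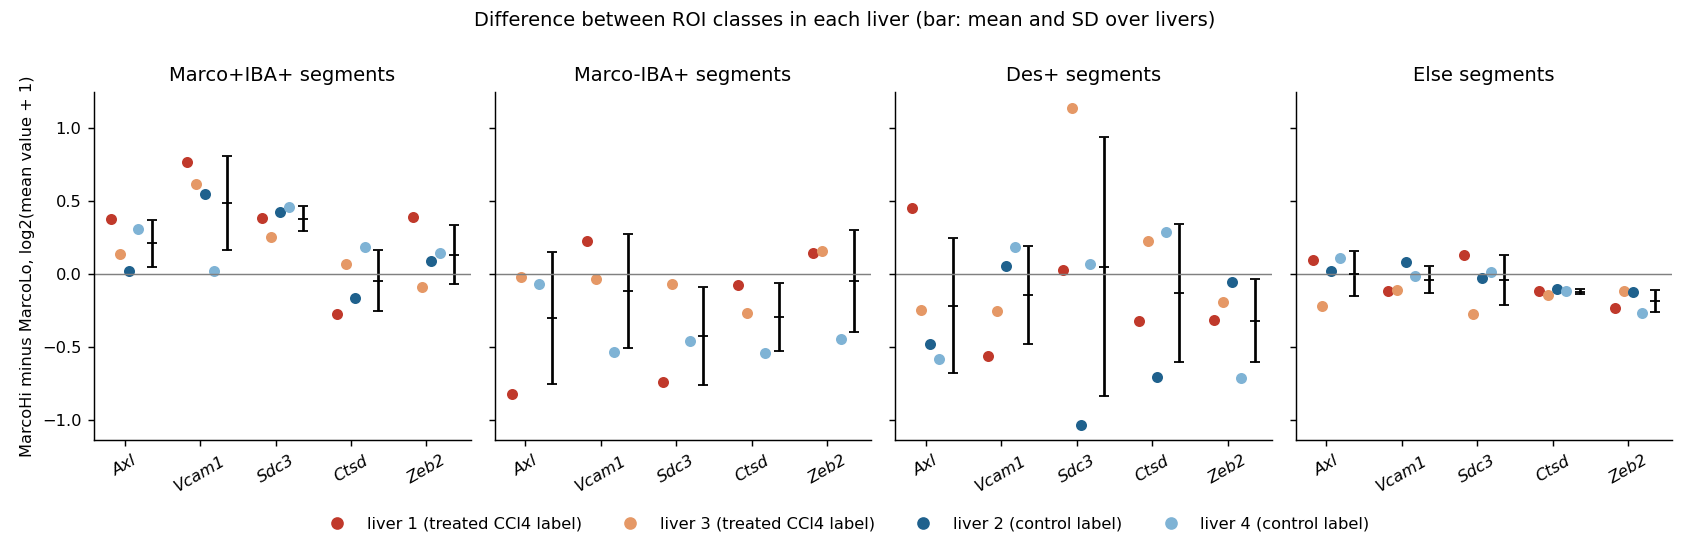
Difference of log2(mean value + 1) between MarcoHi and MarcoLo ROIs for each member in the 4 segment types, with 1 point per liver and the mean and SD over livers as a bar (3 livers for Marco-IBA+ segments). Sdc3 and Vcam1 were above 0 in all livers in Marco+IBA+ segments, and Ctsd and Zeb2 below 0 in all livers in Else segments.

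In Else segments Zeb2 and Ctsd were lower in MarcoHi ROIs of all 4 livers. Zeb2 had means of 8.19, 7.76, 9.72 and 7.71 in MarcoHi and 9.78, 8.51, 10.6 and 9.48 in MarcoLo ROIs of livers 1 to 4, lower in MarcoHi ROIs of each liver. The difference was -0.18 ± 0.04 (SE, log2, adjusted p = 0.056 in limma), beyond the spread between livers but above the threshold. Ctsd had means of 80.3, 82.9, 83.2 and 94.6 in MarcoHi and 87.1, 88.8, 91.9 and 103 in MarcoLo ROIs, a difference of -0.12 ± 0.03 (adjusted p = 0.088 in limma) that was within 0.10 to 0.14 below 0 in each liver. Axl (0.01), Vcam1 (-0.04) and Sdc3 (-0.04) differed by less than their errors.
With limma 0 of 5 members passed, beside 10 of 607 genes or 1.65%, and at an unadjusted p below 0.05 the members numbered 2 and all genes 119. Zeb2 passed in 5 of 16 alternatives and Ctsd in 3, among them the linear mixed model (adjusted p = 0.0098 and 0.000539), whereas edgeR and DESeq2 called neither. Their adjusted p ran over all alternatives from 0.0098 to 0.999 for Zeb2 and from 0.000539 to 0.999 for Ctsd. Stellate cell genes were lower in the same segments: 0 of 8 were above 0, the median was -0.18 beside -0.01 for all genes, and Dcn and Rgs5 fell past the threshold. The part of stellate cells in the difference of Zeb2 was not tested.

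In Des+ segments no member passed the test. Zeb2 was at -0.32 ± 0.21 (adjusted p = 0.472 in limma) and below 0 in all 4 livers, Axl at -0.21 ± 0.21, Vcam1 at -0.14 ± 0.21, Ctsd at -0.12 ± 0.21 and Sdc3 at 0.05 ± 0.24. The livers were far apart, with Sdc3 at -1.03 in liver 2 and 1.14 in liver 3. With limma 0 of 5 members passed, beside 24 of 607 genes or 3.95%, and 0 at an unadjusted p below 0.05 beside 106 of all genes. With edgeR and the linear mixed model 0 members passed as well, and DESeq2 gave an adjusted p for Ctsd and Zeb2 only, both above the threshold. The limma 95% interval of the difference ran from -0.43 to 0.54 for Sdc3 and from -0.57 to 0.28 for Vcam1. Limma draws each gene's error toward a value common to all genes, so these intervals do not measure a single gene's spread. Over the 4 livers the difference of Sdc3 had an SD of 0.89. In Marco+IBA+ segments the interval of Vcam1 ran from 0.14 to 0.84 and overlapped that of Des+ segments. A difference between the segment types was not tested. In Marco-IBA+ segments, where 3 livers gave values, Sdc3 differed by -0.73, -0.07 and -0.46, Axl by -0.82, -0.02 and -0.06 and Ctsd by -0.07, -0.27 and -0.54 in livers 1, 3 and 4, all lower in MarcoHi ROIs. Vcam1 and Zeb2 took both signs, liver 1 had 1 MarcoHi segment of this type, and no test was made.

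The livers labelled treated CCl4 and control were compared as 2 against 2. In Marco+IBA+ segments Zeb2 stood at 5.71 and 5.85 in the livers labelled treated CCl4 and 5.19 and 5.48 in those labelled control (log2). The difference was 0.44 ± 0.17 (SE). Its adjusted p was 0.341 in limma. Sdc3 stood at 7.77 and 7.59 against 7.24 and 7.42, a difference of 0.35 ± 0.17 (adjusted p = 0.453 in limma). Axl (0.09 ± 0.16), Vcam1 (0.10 ± 0.22) and Ctsd (-0.06 ± 0.16) differed by less than their errors. With limma 0 of 5 members passed, beside 4 of 607 genes or 0.659%, and 1 member, Zeb2, had an unadjusted p below 0.05 beside 67 of all genes. Marco was 2.24 ± 0.18 higher in the livers labelled treated CCl4 (adjusted p = 4.59e-05 in limma), a call that held in 14 of 15 alternatives and was lost in the linear mixed model (2.23, adjusted p = 0.273). No alternative called a member, with edgeR, DESeq2 and the linear mixed model among them.
The class difference of the members in Marco+IBA+ segments was also set against the labels. Vcam1 differed most between the pairs, by 0.40 ± 0.28, and no member's difference between pairs passed (adjusted p from 0.979 to 0.988 in limma), beside 0 of 607 genes or 0%, with 0 members and 30 genes at an unadjusted p below 0.05.

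In Else segments the livers labelled treated CCl4 were higher by a median of 0.11 over all genes (-0.02 with the segments re-centred on their median), so that the members are given beside this shift. Sdc3 stood at 3.88 and 4.10 against 3.60 and 3.62, a difference of 0.38 ± 0.10 (adjusted p = 0.195 in limma). Axl differed by 0.34 ± 0.09, Vcam1 by 0.28 ± 0.09, Zeb2 by 0.17 ± 0.09 and Ctsd by -0.10 ± 0.10. Above 0 were 4 of 5 members and 424 of 607 genes, so nothing is read from the members' direction. Beside them, 7 of 8 stellate cell genes were above 0 (median 0.27) and Cd63 was at 0.51, and their part was not tested. Of the 10 lysosome genes 2 were above 0 (median -0.10), of the 7 TAM genes 4 (0.11), of the 7 syndecan and VCAM1 genes 4 (0.03) and of the 7 ZEB2 genes 5 (0.12). With limma 0 of 5 members and 0 of 607 genes passed, or 0%, while 3 members and 140 genes had an unadjusted p below 0.05. DESeq2 called 114 genes, Sdc3 among them (0.25, adjusted p = 0.0385), the linear mixed model 41 and edgeR 0. Over 16 alternatives the difference of Sdc3 ran from 0.24 to 0.49. With 2 livers a label, the label cannot be told apart from the animals.

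**Figure D5:**
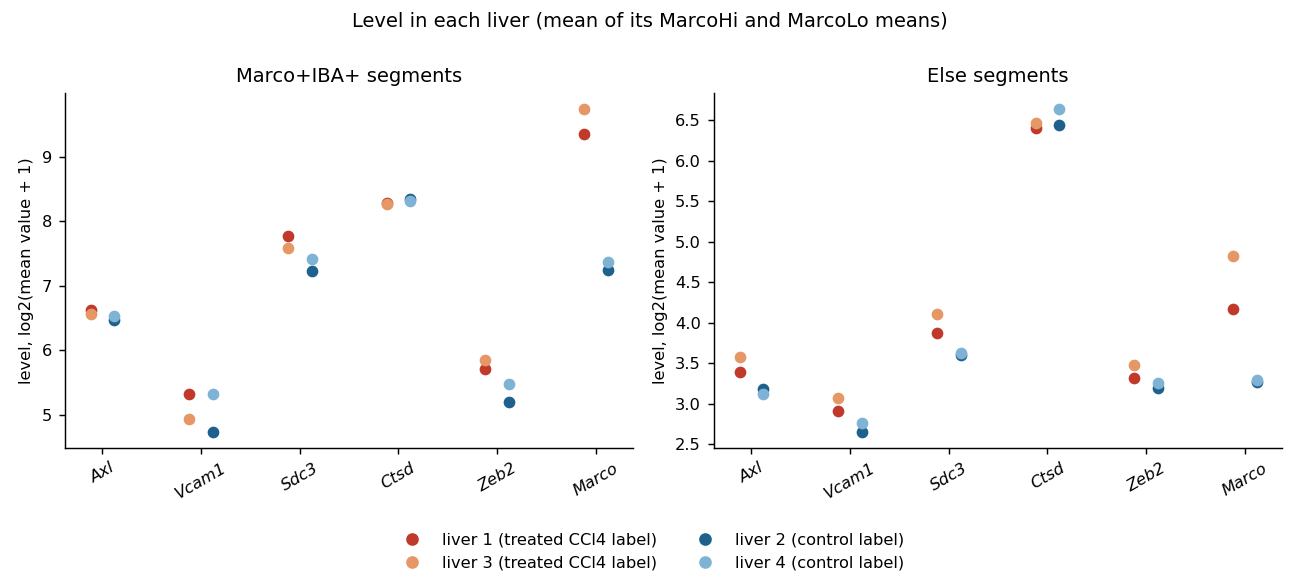
Level of each member and of Marco in each liver as log2(mean value + 1), in Marco+IBA+ segments (left) and Else segments (right), with the livers labelled treated CCl4 drawn left of those labelled control. In Marco+IBA+ segments Sdc3 stood at 7.77 and 7.59 under treated CCl4 and at 7.24 and 7.42 under control. In Else segments it stood at 3.88 and 4.10 against 3.60 and 3.62.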

How the data were processed

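Spatial expression was measured in 159 segments of 51 ROIs in formalin-fixed sections of 4 mouse livers, with probes of the GeoMx mouse Whole Transcriptome Atlas. Per the labels, reads were converted with bcl2fastq 2.20.0.422 and mm10 was the genome build. The authors ran the GeoMx pipeline, which counts unique molecular identifiers, filtered segments and genes, kept genes of stellate cells, and deposited a Q3-normalized signal with an upper quartile of 26.074 in every segment. No column was without a sample.

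The underlying counts were recovered from the steps of the values (96513 of 96513 whole, relative tolerance 1e-06). The lowest count was 1, so a value at 1 count is no level. Summed counts ran from 3106 to 27341 in Marco+IBA+, 1065 to 4457 in Marco-IBA+, 1448 to 16715 in Des+ and 75571 to 448875 in Else segments, and deeper segments give the more precise values. All 607 symbols matched RefSeq.

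Values were averaged per liver and ROI class and analysed as log2(mean + 1) in limma 3.58.1 (R 4.3.3), with the liver as a block for MarcoHi against MarcoLo, and Benjamini-Hochberg adjustment over 607 genes (threshold 0.05). The label comparison used 2 livers against 2. Mixed models on single segments (lme4 1.1.37, lmerTest 3.1.3) and tests of summed counts (edgeR 4.0.16, DESeq2 1.42.0) were alternatives. Counts were summed per liver and class for the classes, and per liver for the labels. In the latter the classes weigh by their counts, whereas limma weighted them equally. Segments of a liver share the animal, so p-values that treat them as independent are too small. The mixed models held a random term for the liver. The remaining computing used Python 3.11.15 and scipy 1.17.1. The limma fits were run on simulated data drawn without differences between livers, which cannot show how the fits handle such differences.

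The members and lists were chosen with earlier results of these data known. The named genes were the 5 members, Marco, the 2 highest and 2 lowest genes of each list, the 3 genes of most similar pattern for each member and the 3 genes of highest correlation with Marco. Cd63, Dcn and Rgs5, as the called genes of their lists, and Itga9, Itgb1, Rdx, Ecm1 and the segments singled out were named after their values were seen. ROIs with the same number in a liver's classes were checked as pairs: of 14 pairs 2 correlated above 0.1 (-0.09 to 0.16), so the numbers do not pair the ROIs. The class of 1 ROI of liver 4 (3 segments) was missing from its library name and was taken from its label.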

Additional observations from a re-analysis of the deposited data

Results flagged for a closer look

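In 16 of the 144 sets of 4 to 10 segments examined for the members and Marco (1 segment type, ROI class and liver each), 1 segment lay far from the rest. The rule's nominal rate of about 1 in 20 holds for independent sets. Here the genes share segments and some values rest on few counts, so no excess over that rate is read. Of the 16, 3 came from the Else segment of ROI 4 of the MarcoHi class in liver 1, with Marco at 59.7 (next 21.3), Sdc3 at 24.1 (next 14) and Axl at 16 (next 9.2). Another 3 came from ROI 7 of the MarcoHi class in liver 3, where Axl was at 13 in the Marco-IBA+ segment (next 78.2), and Sdc3 at 159 (next 216) and Vcam1 at 19.3 (next 35.3) in the Marco+IBA+ segment. In ROI 4 of the MarcoHi class in liver 2, Marco was at 117 in the Marco+IBA+ segment (next 216) and Sdc3 at 8.59 in the Else segment (next 10.6).

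The other sets each held a segment of their own. Axl was at 32.6 in a Marco-IBA+ segment of liver 4 (next 69.5). Vcam1 was at 4.35 in a Des+ segment of liver 1 (next 13) and at 11.2 in a Marco+IBA+ segment of a MarcoLo ROI of liver 3 (next 26.1). Sdc3 was at 9.22 in an Else segment of liver 4 (next 11). Ctsd was at 8.69 in a Des+ segment of liver 1 (next 52.1), at 381 in a Marco+IBA+ segment of liver 1 (next 279), at 83.3 in an Else segment of liver 2 (next 89.2) and at 93.7 in an Else segment of liver 3 (next 82.8). Their causes were not tested.

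In Des+ segments, Vcam1 differed between MarcoHi and MarcoLo ROIs by -0.56 and -0.25 (log2) in livers 1 and 3, labelled treated CCl4, and by 0.06 and 0.19 in livers 2 and 4, labelled control. The difference between the pairs, -0.531, was not tested, and these segments held a median of 3 counts of Vcam1.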

How the results depend on the processing

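The members kept the sign of their differences between Marco+IBA+ and Else segments under every alternative run, with the value for Ctsd at 1.63 in place of 1.82 when segments were re-centred on their median. The numbers of genes called between MarcoHi and MarcoLo ROIs moved more. In Marco+IBA+ segments 6 became 3 with a pseudocount of 0, 2 with medians over segments, 31 with edgeR, 33 with the linear mixed model, 3 with no replicate block, and 1 to 5 with 1 liver left out. In Else segments 10 became 35 with a pseudocount of 5, 25 with means of log2 values, 5 with medians, 26 re-centred, 30 with edgeR, 24 with DESeq2, 83 with the mixed model, 0 with no replicate block, 71 on single segments with the ROI number as a replicate block, and 0 to 21 with 1 liver left out (21 without liver 2, 0 without liver 3). In Des+ segments 24 became 14 re-centred, 38 with edgeR, 11 with DESeq2, 42 with the mixed model, 9 on single segments with the ROI number as a replicate block, and 5 to 18 with 1 liver left out (5 without liver 2). Between the labels, 4 calls in Marco+IBA+ segments became 17 with a pseudocount of 5, 2 with medians, 13 with edgeR, 15 with DESeq2, 13 with the mixed model, 2 in MarcoHi and 1 in MarcoLo ROIs only, and 3 to 29 with 1 liver left out (29 without liver 2). The 0 calls in Else segments became 114 with DESeq2, 41 with the mixed model, 1 in MarcoHi ROIs only and 0 to 2 with 1 liver left out. Where a label kept 1 liver, it was assumed to vary like the other pair.

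No member whose direction turned was called. For Ctsd between classes in Marco+IBA+ segments (-0.04) the value was 0.042 re-centred, 0.024 with edgeR, 0.026 with DESeq2 and -0.12 to 0.033 with 1 liver left out. For Axl in Else segments (0.01) it was -0.022 with edgeR, -0.015 with DESeq2, -0.0079 with the mixed model, -0.013 with the ROI of unnamed class left out, -0.048 on single segments with the ROI number as a replicate block, and -0.031 to 0.078 with 1 liver left out. For Sdc3 in Else segments (-0.04) it was 0.095 with medians and -0.093 to 0.042 with 1 liver left out. In Des+ segments Sdc3 (0.05) ran from -0.31 to 0.41 and Ctsd (-0.12) from -0.26 to 0.068 with 1 liver left out, and Zeb2 (-0.32) was 0.022 on single segments with the ROI number as a replicate block. Between the labels in Marco+IBA+ segments Axl (0.09) was -0.0036 with medians, and Vcam1 (0.10) was -0.10 in MarcoLo ROIs only and -0.20 to 0.39 with 1 liver left out. The fit on single segments with the ROI number as a replicate block changes both choices, so its counts cannot be put down to the block. In Else segments it called Ctsd (adjusted p = 0.0226 in limma) and Zeb2 (adjusted p = 0.0152 in limma), as did the mixed model on single segments without that block, and the numbers do not pair the ROIs. Scaling by summed counts, and leaving out the Marco-IBA+ segment of highest Marco, were chosen after seeing the data. The causes were not tested. The few counts of Marco-IBA+ and Des+ segments limit what could be seen there.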
